A study of Arabidopsis thaliana with 6 samples.

Results

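The trehalose-phosphate synthase genes TPS1 and TPS5 to TPS11 were taken by gene identifier from a table of FPKM values (fragment counts scaled for gene length and for library depth) that lists 32948 genes. All 8 were found, and all 8 carry their TPS name there together with a glycosyltransferase family 20 domain and a trehalose-phosphatase domain. The plants were wild-type (WT) Arabidopsis thaliana seedlings, labelled 6 h in both groups. The 3 control libraries came from seedlings on plain MS medium, the usual salt medium for plant culture, and the 3 treated libraries from seedlings on that medium with yttrium oxide nanoparticles at 20 mM, a powder of a rare-earth oxide. The series asks how these particles affect seedlings. Total RNA came from seedlings and not from single tissues, so fewer cells of a type and less RNA per cell cannot be told apart. The labels do not say whether libraries of a group are separate cultures, and a p-value here reflects the scatter of these libraries, which may be technical.

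Trehalose is a sugar that most plants make in traces only. Trehalose-phosphate synthase joins UDP-glucose and glucose 6-phosphate to trehalose 6-phosphate, a signal of sucrose supply that inhibits the energy-sensing kinase SnRK1, and a phosphatase (TPP) and trehalase then remove it. In Arabidopsis the class I protein TPS1 is the main active synthase and is needed for embryos to mature. The class II proteins TPS5 to TPS11 carry both domains, but synthase activity has not generally been found in them, and they are regarded as regulators that bind SnRK1. TPS8 to TPS11 transcripts are known to rise when carbon is short, whereas TPS5 transcripts are known to rise with sugar.

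The 2 classes also differ in gene structure. TPS1 (AT1G78580, chromosome 1, 29552340 to 29560912, minus strand) has 17 coding exons and a coding length of 2829 bases. The other class I genes TPS2, TPS3 and TPS4 have 17 coding exons each as well. Each of the 7 class II genes has 3 coding exons, with coding lengths from 2556 bases (TPS7) to 2604 bases (TPS9). Of the 8 genes, TPS11 lies on chromosome 2, TPS5 on chromosome 4 and the rest on chromosome 1. Genes on the other strand cover 6.2% of the TPS1 span, 5.7% of the TPS6 span and 3.0% of the TPS5 span, and reads there cannot be assigned to a strand without knowing how strand was used.

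In the treated seedlings 4 class II genes rose (TPS6, TPS8, TPS9 and TPS11), TPS1 fell, and TPS5, TPS7 and TPS10 did not pass the threshold. The threshold was a Benjamini-Hochberg adjusted p under 0.05 in limma, fitted to log2(FPKM + 1) of 18614 genes. Of all genes tested, 8.07% were called higher and 6.41% lower. All 8 family members passed the filter of a mean of 1 FPKM. Their median log2 change was 0.82, beside 0.00087 over all genes tested. Groups did not overlap for the 4 genes that rose and for TPS1, against 19.0% of tested genes with all treated libraries higher and 16.7% with all lower.

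**Figure D1:**
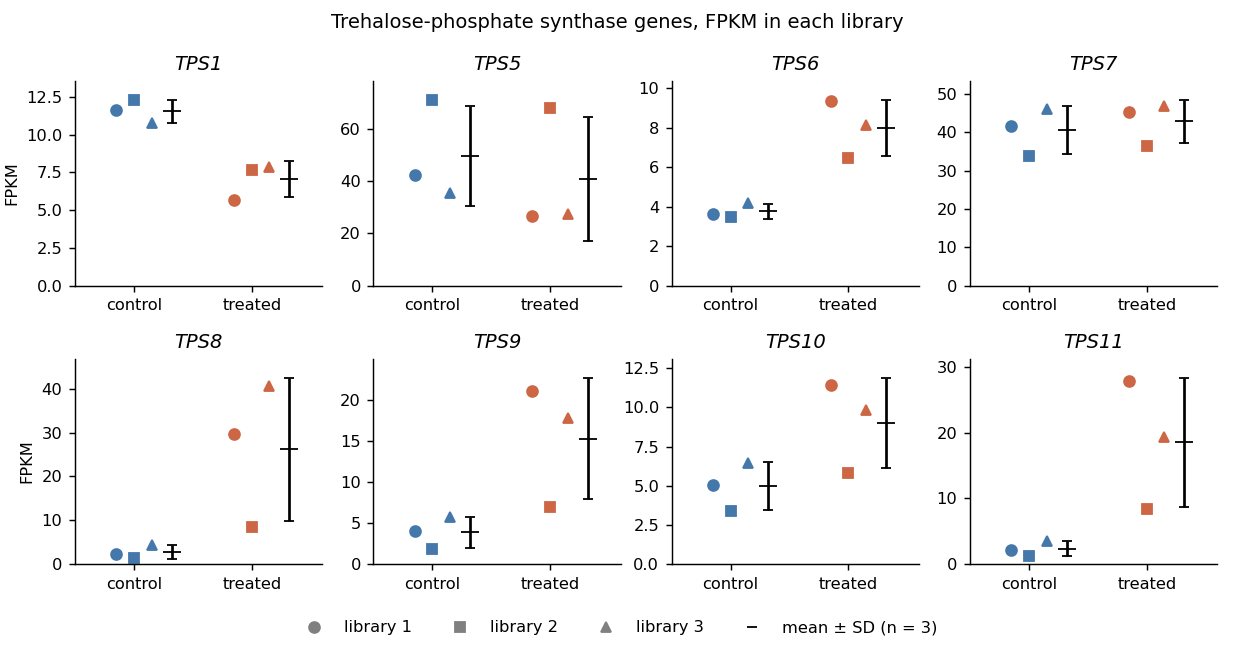
FPKM of each trehalose-phosphate synthase gene (vertical axis, linear from 0, own scale per gene) in the 3 control and 3 treated libraries, with the library number as the point shape and the mean ± SD (n = 3) beside them. TPS8 and TPS11 lie between 1.25 and 4.38 FPKM in controls and between 8.33 and 40.6 FPKM in treated libraries, and library 2 is the lowest of its group for both genes.

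The upstream sequences of 4 of the genes that changed are shown because 3 of them (TPS8, TPS9 and TPS11) rose together, so that stretches they have in common can be read. Each is the stretch of 250 bases before the annotated start in RefSeq's TAIR10.1 assembly, whose coordinates for all 8 genes were the same as in the deposited table. TPS8 lies at chr1:26474834-26475083 (minus strand), TPS9 at chr1:8431929-8432178 (plus), TPS11 at chr2:8108648-8108897 (plus) and TPS1 at chr1:29560913-29561162 (minus). All are read 5′ to 3′. Capitals mark runs that TPS8 and TPS9 share and matches to the searched motifs described next.
TPS8: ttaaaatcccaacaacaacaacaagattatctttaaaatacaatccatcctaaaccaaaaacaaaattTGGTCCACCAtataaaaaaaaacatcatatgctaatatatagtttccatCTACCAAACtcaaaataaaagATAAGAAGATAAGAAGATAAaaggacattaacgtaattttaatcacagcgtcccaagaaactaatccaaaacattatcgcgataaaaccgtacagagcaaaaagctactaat
TPS9: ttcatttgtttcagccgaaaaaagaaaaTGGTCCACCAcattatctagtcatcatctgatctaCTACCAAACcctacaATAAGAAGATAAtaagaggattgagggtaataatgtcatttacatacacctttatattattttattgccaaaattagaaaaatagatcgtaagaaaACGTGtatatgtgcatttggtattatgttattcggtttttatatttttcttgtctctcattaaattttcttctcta
TPS11: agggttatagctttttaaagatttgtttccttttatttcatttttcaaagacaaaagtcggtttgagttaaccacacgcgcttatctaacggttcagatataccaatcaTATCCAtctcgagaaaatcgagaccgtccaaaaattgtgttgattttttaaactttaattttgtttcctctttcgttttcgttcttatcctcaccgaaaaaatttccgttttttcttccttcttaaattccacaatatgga
TPS1: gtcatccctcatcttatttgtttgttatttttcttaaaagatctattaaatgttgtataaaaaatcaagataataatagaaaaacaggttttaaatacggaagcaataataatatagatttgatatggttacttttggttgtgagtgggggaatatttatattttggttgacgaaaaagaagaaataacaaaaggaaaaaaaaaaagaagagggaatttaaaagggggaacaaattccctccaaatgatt

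The TPS8 and TPS9 stretches share 3 runs of at least 9 bases, in the same order. TGGTCCACCA begins 182 bases before the TPS8 start and 222 before the TPS9 start, CTACCAAAC 133 and 187 bases before, and ATAAGAAGATAA 112 and 172 bases before. The last run occurs again in TPS8, overlapping itself, 104 bases before the start. Of 27443 protein-coding promoters of the same length, 18 (0.0656%) hold the first run on either strand, 89 (0.324%) the second and 10 (0.0364%) the third, and none of the other 5 members compared holds any. The longest run shared by any of the 21 pairs among the 7 members compared was 7 to 12 bases long, and TPS8 with TPS9 was the pair that reached 12. TPS5, which did not pass the threshold, shared runs of 11 bases with TPS8, TPS9 and TPS1. TPS11 shared 7 bases with TPS8 and 9 with TPS9. Only runs of the pair with the longest shared run were counted in all promoters. These runs were found by comparing the printed letters and are a description, not binding sites.

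Short motifs were searched on both strands. The core ACGTG, bound by many bZIP factors, is in 22.9% of all promoters, and the G-box CACGTG, which contains that core, is in 6.49%. The element ACTCAT, bound by bZIP factors of the S1 group, is in 12.3%, and the element TATCCA, known from sugar-starvation genes of rice, is in 13.6%. Among the 7 members compared, TPS9 holds 1 core, TPS11 and TPS10 hold 1 TATCCA each, and TPS5 holds 1 ACTCAT. The G-box is in none of the 7 windows, and none of the 4 motifs is in those of TPS1, TPS7 and TPS8.

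TPS8 (AT1G70290, chromosome 1, 26470795 to 26474833, minus strand) had the largest log2 change of the 8 genes with all libraries, and TPS11 had the larger one (2.38 against 2.31) without treated library 3. The upstream sequence printed above is the one that shares runs with TPS9. TPS8 was at 2.30, 1.25 and 4.38 FPKM in controls 1, 2 and 3 and at 29.6, 8.43 and 40.6 FPKM in treated libraries 1, 2 and 3. Every treated library lay above every control, and the lowest treated value was 1.93 times the highest control value. The means were 2.64 ± 1.59 and 26.2 ± 16.3 FPKM (SD, n = 3 each), a ratio of 9.92. The change was 2.74 (SE 0.564, limma adjusted p = 0.0191) on the log2(FPKM + 1) scale, where changes of genes with low values come out too small. Control 2, the lowest value, rested on 84 reads.

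TPS11 (AT2G18700, chromosome 2, 8108898 to 8112010, plus strand), known from work on aphid feeding, followed. Controls 1, 2 and 3 were at 2.08, 1.25 and 3.52 FPKM and treated libraries at 27.9, 8.33 and 19.3 FPKM. The groups did not overlap, and treated library 2 was again the lowest of its group. The mean rose from 2.28 ± 1.15 to 18.5 ± 9.81 FPKM (SD, n = 3), 2.48 on the log2(FPKM + 1) scale (SE 0.430, limma adjusted p = 0.00992).

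TPS9 (AT1G23870, chromosome 1, 8432179 to 8435656, plus strand) rose less. Its values were 3.96, 1.86 and 5.70 FPKM in controls 1, 2 and 3 and 21.1, 6.92 and 17.8 FPKM in treated libraries. The lowest treated value, in library 2, was 1.21 times the highest control value. The log2 change was 1.70 (SE 0.445, limma adjusted p = 0.0450). TPS10 (AT1G60140, chromosome 1, 22176934 to 22181740, minus strand) had 5.07, 3.36 and 6.43 FPKM in controls and 11.4, 5.84 and 9.81 FPKM in treated libraries. Treated library 2 lay below control 3, so the groups overlapped. Its log2 change of 0.74 (95% interval 0.117 to 1.36) did not pass (limma adjusted p = 0.110).

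TPS6 (AT1G68020, chromosome 1, 25496928 to 25500584, plus strand), which is known from a mutant with altered cell shape, had the least spread among the genes that rose. Controls 1, 2 and 3 were at 3.62, 3.48 and 4.19 FPKM and treated libraries 1, 2 and 3 at 9.32, 6.48 and 8.15 FPKM. All treated values were higher, the lowest by a factor of 1.55 over the highest control. Its mean of 3.76 ± 0.378 FPKM became 7.99 ± 1.43 FPKM (SD, n = 3), which is 0.91 on the log2(FPKM + 1) scale (SE 0.150, limma adjusted p = 0.00569).

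TPS1, the class I synthase gene, went the other way. It was at 11.6, 12.3 and 10.7 FPKM in controls 1, 2 and 3 and at 5.70, 7.64 and 7.86 FPKM in treated libraries. Every treated library lay below every control. The mean fell from 11.5 ± 0.762 to 7.07 ± 1.19 FPKM (SD, n = 3), a log2 change of -0.65 (SE 0.138, limma adjusted p = 0.0169).

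The most abundant members, TPS5 and TPS7, did not pass the threshold. TPS5 (AT4G17770, chromosome 4, 9876172 to 9880386, plus strand), linked in the plant to heat tolerance, was at 42.2, 71.0 and 35.2 FPKM in controls and 26.5, 67.9 and 27.5 FPKM in treated libraries. Library 2 was the highest in each group and the groups overlapped, with a log2 change of -0.35 (95% interval -1.30 to 0.589, limma adjusted p = 0.600). TPS7 (AT1G06410, chromosome 1, 1954674 to 1958866, plus strand) was at 41.8, 33.9 and 46.2 FPKM in controls and 45.4, 36.5 and 46.9 FPKM in treated libraries. Its log2 change was 0.08 and the 95% interval ran from -0.261 to 0.423 (limma adjusted p = 0.755).

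**Figure D2:**
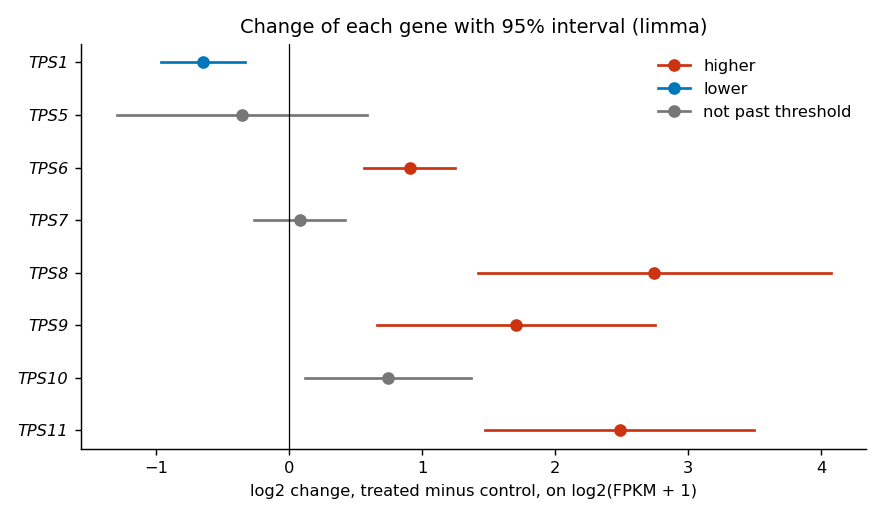
Change of each trehalose-phosphate synthase gene, as treated less control in log2(FPKM + 1) units (horizontal axis), as the limma estimate with its 95% interval. Points are coloured by the call at an adjusted p under 0.05: TPS8 (2.74) and TPS11 (2.48) lie farthest to the right, TPS1 (-0.65) to the left, and the intervals of TPS5 and TPS7 span 0.

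The calls of TPS6 and TPS11 held under all 18 alternatives run, while those of TPS8, TPS9 and TPS1 did not hold in every one. Among the alternatives, scaling by DESeq2 size factors gave the main fit's adjusted p-values for all 8 members. TPS9 was not called with no filter or by edgeR (limma and edgeR adjusted p = 0.0523 and 0.0612). TPS8 lost its call without control 1 (limma adjusted p = 0.0680), control 2 (0.0703) or treated library 1 (0.0846). TPS9 lost it without control 1 (0.110), control 2 (0.131), control 3 (0.0504), treated library 1 (0.153) or treated library 3 (0.114). TPS1 lost it without control 1 (0.0719) or control 2 (0.0706). TPS10 gained a call without treated library 2 (log2 change 0.99, adjusted p = 0.0164). Over all alternatives the log2 change ran from 2.31 to 3.38 for TPS8, from 1.37 to 2.16 for TPS9 and from -0.72 to -0.52 for TPS1. The number of members called higher was 2 without control 1, control 2 or treated library 1, where calls over all genes also fell, from 1502 higher to 683, 781 and 889. On reads recovered from the FPKM values, edgeR called 3 members higher (9.01% of its tested genes) and 1 lower (7.88%), without TPS9. DESeq2 on the same reads called 5 higher (9.60%), with TPS10 added, and 1 lower (7.97%). With the library number as a block, limma called 5 members higher (9.89%), again with TPS10, and 1 lower (7.61%).

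The authors' deposited table of changed genes lists 4 of the 8 members, the same genes that rose here, and 3.18% of all genes as higher. In the authors' deposited table the log2 changes are 3.31 for TPS8, 3.02 for TPS11, 1.99 for TPS9 and 1.08 for TPS6, with adjusted p-values of 0.000294, 3.01e-05, 0.0129 and 3.40e-07. DESeq2 on the recovered reads gave the same log2 changes for these 4 genes, so the deposited list is not a separate check. All changes in that list are at least 1 on the log2 scale in size. TPS1 (-0.71, DESeq2 adjusted p = 0.000274) and TPS10 (0.86, DESeq2 adjusted p = 0.0121) passed on the recovered reads with changes under that size.

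The order of the mean levels differed between the groups. In controls the mean FPKM ran TPS5 (49.5 ± 19.0), TPS7 (40.6 ± 6.24), TPS1 (11.5 ± 0.762), TPS10 (4.95 ± 1.54), TPS9 (3.84 ± 1.92), TPS6 (3.76 ± 0.378), TPS8 (2.64 ± 1.59) and TPS11 (2.28 ± 1.15). The ranges of TPS7, TPS1 and TPS10 were apart from each other, and all other neighbours overlapped. In treated libraries the order was TPS7 (42.9 ± 5.61), TPS5 (40.6 ± 23.7), TPS8, TPS11, TPS9, TPS10 (9.02 ± 2.87), TPS6 (7.99 ± 1.43) and TPS1 (7.07 ± 1.19), and the ranges of all neighbours overlapped. By its mean TPS1 ranked 3 of 8 in controls and 8 of 8 in treated libraries.

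TPS8 to TPS11 held a larger part of the family's transcripts in each treated library than in any control. Of the summed FPKM of the 8 genes, these 4 held 11.9% in control 1, 6.02% in control 2 and 17.2% in control 3. They held 50.9% in treated library 1, 19.9% in treated library 2 and 49.2% in treated library 3. Treated library 2 was nearer to control 3 than to the other treated libraries. The share of TPS1 was 9.71 ± 0.570% among controls against 4.27 ± 0.979% among treated libraries (SD, n = 3). The share of TPS7 was 34.4 ± 7.05% against 25.6 ± 0.861%, while its own log2 change was 0.08. The groups were apart for the single shares of TPS1, TPS6, TPS7, TPS8 and TPS11. For TPS7 the gap was narrow, with 26.36% in treated library 3 and 26.38% in control 2. Each of these shares had an exact 2-sided permutation p of 0.1. That is the smallest p that 3 against 3 allows, so no share could pass 0.05.

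**Figure D3:**
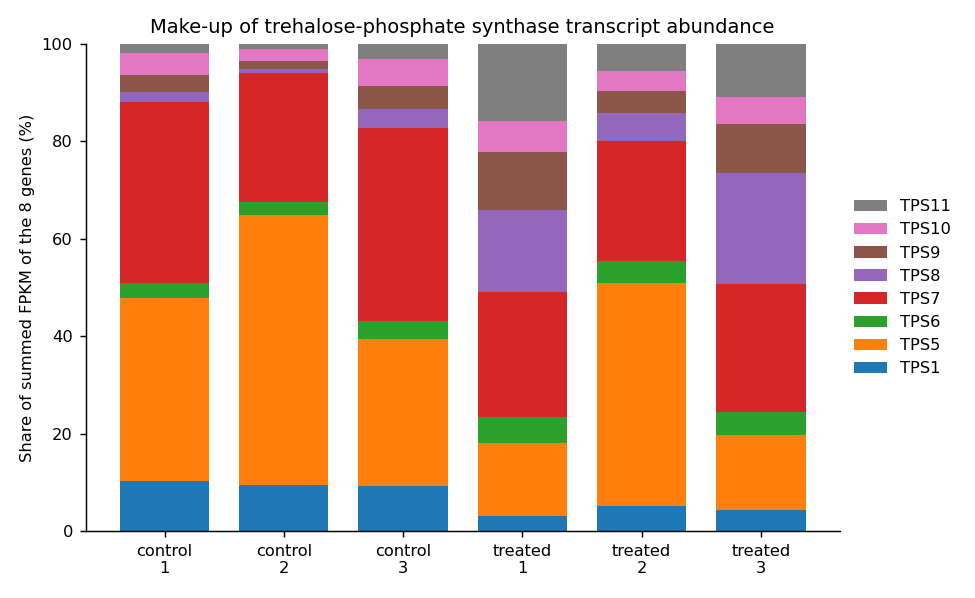
Share of each gene in the summed FPKM of the 8 trehalose-phosphate synthase genes (vertical axis, percent, bars starting at 0), 1 bar per library. TPS5 and TPS7 together hold 70.0 to 81.7% in controls, 40.6 and 41.8% in treated libraries 1 and 3, and 70.5% in treated library 2.

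The summed FPKM of the 8 genes was 113, 128 and 116 in controls and 177, 148 and 178 in treated libraries. The class II sum was 107.6 ± 7.75 FPKM among controls and 160.5 ± 17.4 FPKM among treated libraries (SD, n = 3 each), with the groups apart. The ratio of the class II sum to TPS1 was 9.32 ± 0.594 and 23.4 ± 6.02 in the same order, also with the groups apart. TPS5, TPS6 and TPS7 summed to 93.8 ± 12.6 and 91.5 ± 16.8 FPKM, and there the groups overlapped.

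Changes were also compared between members, as differences of log2(FPKM + 1) within each library. All 28 pairs were compared, and none could pass 0.05, since the smallest exact permutation p is 0.1. The groups were apart in 19 of the 28 pairs. TPS8 changed by 2.0 more than TPS10 and by 1.04 more than TPS9, and its groups were apart in both cases. Between TPS8 and TPS11 the difference was 0.26 and the groups overlapped (exact permutation p = 0.8).

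Library 2 stood apart for most members in both groups. Library 2 was the lowest of its group, in controls and in treated libraries alike, for 6 of the 8 genes (TPS6 to TPS11), beside 17.4% of all tested genes. It was the highest in both groups for TPS5, beside 16.8% of tested genes. TPS1 did neither. With both libraries numbered 2 left out, an alternative chosen after seeing the data, the same 4 genes and TPS10 were called higher, beside 7.10% of genes tested. The log2 changes were then 3.08 for TPS8, 1.82 for TPS9 and 0.79 for TPS10. TPS1 lost its call (-0.66, limma adjusted p = 0.0534), beside 5.57% of genes called lower. On the first principal component of all tested genes treated library 2 had a value of 25.1, treated library 1 of 48.2 and treated library 3 of 40.7, while controls ran from -43.7 to -32.2. What set library 2 apart was not tested.

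**Figure D4:**
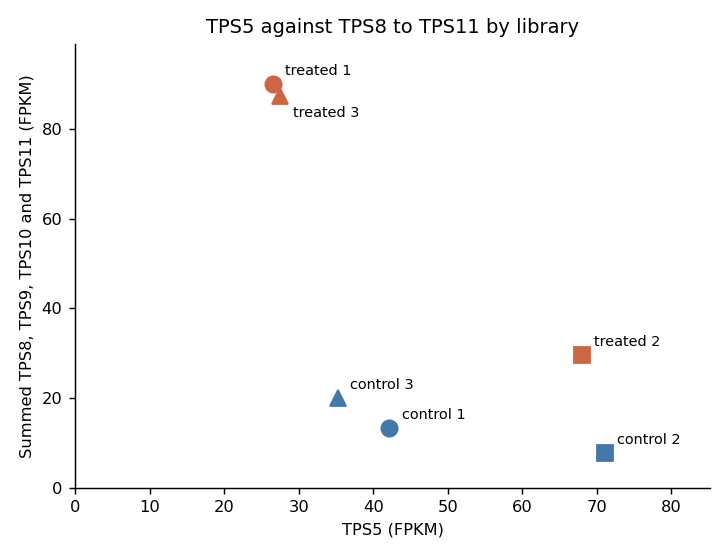
Summed FPKM of TPS8, TPS9, TPS10 and TPS11 (vertical axis) against FPKM of TPS5 (horizontal axis), both linear from 0, 1 point per library, with colour for the group and shape for the library number. Treated libraries 1 and 3 sit at 90.0 and 87.5 FPKM for the sum, treated library 2 at 29.5 FPKM, and the controls between 7.72 and 20.0 FPKM.

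Elsewhere in the trehalose pathway 1 phosphatase gene, TPPB, fell. The other class I genes TPS2, TPS3 and TPS4 were under the filter and not tested. TPS2 had 0 reads in every library, where a count of 0 allows up to 3 reads, or 0.0478 to 0.0570 FPKM by library. TPS3 had at most 3 reads in a library and TPS4 at most 18. Of the 10 phosphatase genes TPPA to TPPJ, 8 were tested and 1 was called lower, beside 6.41% of all tested genes. Their median log2 change was 0.15. The number called higher was 0 by limma, edgeR and DESeq2, beside 8.07%, 9.01% and 9.60% of their tested genes. At an unadjusted limma p under 0.05, 2 were higher. Without treated library 2, 2 were called higher, where 1944 genes were called higher over all genes. TPPB was at 8.26 ± 0.942 FPKM among controls and fell to 4.63 ± 0.305 FPKM, -0.71 on the log2(FPKM + 1) scale (SE 0.126, limma adjusted p = 0.00766). The summed FPKM of all 10 was 77.1 ± 1.91 among controls and 80.6 ± 2.07 among treated libraries (SD, n = 3), and the groups overlapped. TRE1, the trehalase gene, was at 3.67 ± 0.247 and 3.46 ± 0.672 FPKM (limma adjusted p = 0.771).

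Of 9 genes for the SnRK1 complex and its upstream kinases, 1 was called higher, beside 8.07% of all tested genes. Lower calls were 0 by limma, edgeR and DESeq2, with 1 gene at an unadjusted limma p under 0.05. KING1, a gamma-type subunit gene, rose from 15.5 ± 2.57 to 30.7 ± 5.55 FPKM (log2 change 0.94, limma adjusted p = 0.00695). KIN10 and KIN11, the catalytic subunit genes, were chosen after their values were seen. They were higher in all 3 treated libraries, from 16.0 ± 0.731 to 19.6 ± 1.01 and from 16.3 ± 0.808 to 20.2 ± 0.436 FPKM, without passing (limma adjusted p = 0.109 and 0.0799). All treated libraries lay above all controls for 3 of the 9 genes, beside 19.0% of all tested genes. They lay below all controls for 1, beside 16.7%. That gene was KINB2, with means of 32.2 FPKM in controls and 27.1 FPKM in treated libraries (limma adjusted p = 0.158). The number called higher was 2 with DESeq2 (beside 9.60% of its tested genes), the block (9.89%) and without both libraries numbered 2 (7.10%). It was also 2 without treated library 2, where 1944 genes were called higher over all genes. Of 6 marker genes known to rise with SnRK1 activity, 5 were called higher by limma and edgeR and 6 by DESeq2. The shares of all tested genes called higher were 8.07% by limma, 9.01% by edgeR and 9.60% by DESeq2. Earlier results of these data had shown several of the 6 markers, so their rise is not independent support. ASN1, an asparagine synthetase gene, went from 0.239 ± 0.0929 to 43.2 ± 16.0 FPKM, SEN1 from 0.173 ± 0.183 to 9.40 ± 4.06 and DRMH1 from 2.88 ± 1.70 to 74.8 ± 41.3 FPKM. Like TPS6 to TPS11, 5 of these 6 genes were lowest in library 2 of both groups, beside 17.4% of all tested genes.

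Among 9 bZIP genes of the C and S1 groups, factors that act with SnRK1, 2 rose, beside 8.07% of all tested genes. BZIP63, a known SnRK1 substrate, was at 5.88 ± 2.01 FPKM among controls and 24.0 ± 11.3 FPKM among treated libraries, with a log2 change of 1.77 (SE 0.402, limma adjusted p = 0.0273). BZIP1 was at 2.13 ± 1.66 and 37.3 ± 17.3 FPKM (limma adjusted p = 0.00356). BZIP11, whose translation is repressed by sucrose, had a log2 change of -0.30 (limma adjusted p = 0.335). The count of higher genes was 5 of 9 with edgeR (beside 9.01% of its tested genes), DESeq2 (9.60%) or the block (9.89%). It was also 5 of 9 without treated library 2, where 1944 genes were called higher over all genes. Without both libraries numbered 2 it was 4, beside 7.10%. It was 1 of 9 without control 1, control 2, treated library 1 or treated library 3. Over all genes, 683, 781 and 889 were called higher without control 1, control 2 and treated library 1.

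The genes that supply the substrates or lead to sucrose and starch are read beside 14.5% of all tested genes called in either direction. In the list for UDP-glucose and hexose phosphates 1 of 8 fell, the plastid hexokinase gene HXK3, from 5.86 ± 0.157 to 2.03 ± 0.763 FPKM (limma adjusted p = 0.00427). SUS1, a sucrose synthase gene, rose from 8.79 ± 1.65 to 16.0 ± 2.31 FPKM (limma adjusted p = 0.0114; without control 1 no sucrose synthase gene was called), the only call among 4 tested members. Of the sucrose-phosphate synthase genes 0 of 3 tested were called by limma, edgeR or DESeq2, with 0 at an unadjusted limma p under 0.05, and SPSC had the smallest limma adjusted p of 0.175. Of the 5 ADP-glucose pyrophosphorylase genes 0 were called by limma, edgeR or DESeq2, with 0 at an unadjusted limma p under 0.05 and 1 called lower by limma without treated library 2. The smallest adjusted p among them was that of APS1, at 298 ± 53.0 FPKM in controls and 231 ± 55.7 FPKM with the particles (limma adjusted p = 0.239). In that list 4 of 5 genes were highest in library 2 of both groups, as TPS5 was, beside 16.8% of all tested genes.

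**Figure D5:**
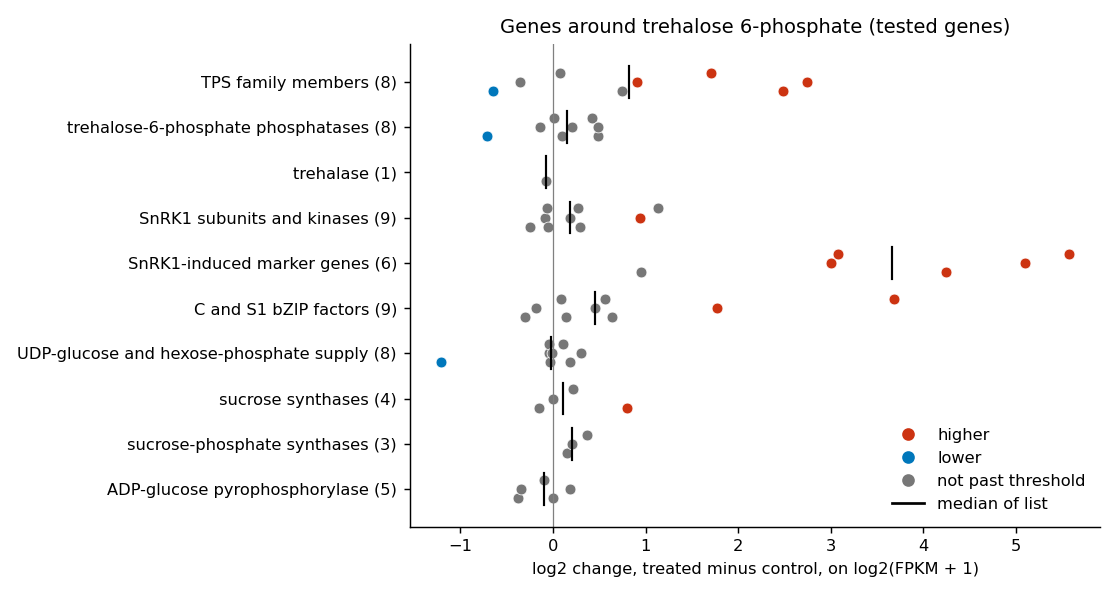
Change, as treated less control in log2(FPKM + 1) units (horizontal axis) of every tested gene in the family and in 9 lists around trehalose 6-phosphate (rows, tested genes in brackets), coloured by the limma call, with a black line at each list's median. The family's median is 0.82, that of the phosphatases 0.15 and that of the SnRK1-induced markers 3.66.

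Tissue markers also differed between the groups. Of 14 root markers, 12 were tested and 9 were called lower (5 without control 3), beside 6.41% of all tested genes. Their summed FPKM was 2013 to 2518 in controls and 482 to 544 in treated libraries, most of it BGLU23, and CASP5, a root endodermis gene too low to be tested, had 0 reads in each treated library and 1 to 4 reads in controls. Of 4 seed storage markers 3 were tested and called lower, beside 6.41% of all tested genes. Only 1 was called without control 1, control 3 or any 1 of the treated libraries. The sum of the 4 markers was 13.5 to 56.1 FPKM in controls and 0.759 to 5.12 FPKM in treated libraries. Of 7 vascular markers 2 fell, beside 6.41% of all tested genes (57.7 to 58.6 FPKM in controls, 51.3 to 67.8 FPKM in treated libraries). The largest part of that sum was SUC2, with means of 30.5 FPKM in controls and 38.1 FPKM in treated libraries. For 4 of the 7 all treated libraries were lower than all controls, beside 16.7% of all tested genes, and for 0 all were higher. Of 7 shoot epidermis and guard cell markers 1 fell by limma, beside 6.41% of all tested genes (264 to 309 and 251 to 297 FPKM). With edgeR and with DESeq2 the number called lower was 2, beside 7.88% and 7.97% of their tested genes. Of 5 mesophyll markers 1 rose, beside 8.07% of all tested genes (12820 to 14770 and 13480 to 15960 FPKM). Leaving out any 1 library took a vascular call away, leaving out control 2, control 3, treated library 1 or treated library 3 took the epidermis call away, and leaving out control 1 or control 2 took the mesophyll call away. The part of tissue make-up in the changes of the trehalose-phosphate synthase genes was not tested. Of 8 clock genes 2 were called higher, beside 8.07% of all tested genes, TOC1 by 0.76 and PRR5 by 0.75 on the log2(FPKM + 1) scale. Both calls were lost without control 1, 1 was left without control 2, control 3, treated library 3 or both libraries numbered 2, and 2 clock genes were called lower without treated library 2.

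For each member that changed, the 2 named genes with the most similar pattern were taken by Pearson's r of log2(FPKM + 1) over the 6 libraries. For TPS8 they were CYCA1-2 (r = 0.999) and DIN10, a raffinose synthase family gene (0.998). DIN10 went from 14.1 to 133 FPKM, and CYCA1-2 from 1.62 to 2.40 FPKM without passing (limma adjusted p = 0.119). For TPS11 they were CBSX3 (0.999) and URH1, a nucleoside hydrolase gene (0.999), and for TPS9 HCF173 (0.997) and ACHT4 (0.997). For TPS6 they were ADR1-L2 (0.998) and PGSIP8 (0.998), and for TPS1 GXM2 (0.997) and DHAD (0.994). These r describe 6 libraries in 2 groups, and the group difference enters them. They are also the highest found among all named genes tested, so the selection enters them too.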

How the data were processed

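The authors deposited FPKM values of 32948 genes in 6 seedling libraries (total RNA, Illumina protocol, per the labels' protocols), and the treatment label set the groups. Alignment software HISAT2 2.0.5 and genome build TAIR10 are listed, per the submitters' processing notes. How reads were counted, with which strand setting and filters, is not given in the sources used here. For 2104 genes the authors' deposited table of changes holds a signal per library (scaled read counts), log2 fold changes and p-values.

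Multiplying FPKM by gene length and dividing by what 1 read is worth in that library (the library's smallest such product) returned whole reads for 100% of values (within 0.01), 19314683 to 23374306 reads per library. Limits set by 3 reads cover counting error only, since PCR copies are not independent. RefSeq's TAIR10.1 annotation matched 32548 identifiers.

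limma 3.58.1 in R 4.3.3 (trend and robust, 2-sided) was fitted to log2(FPKM + 1) of the 18614 genes averaging 1 FPKM or more, with treatment as the only term and Benjamini-Hochberg adjustment over all of them. Changes are treated minus control, and intervals are 95%. Single shares and pairs had exact permutation tests. edgeR 4.0.16 and DESeq2 1.42.0 on the recovered reads were alternatives, as were other pseudocounts, filters and scalings, a replicate block and leaving out libraries. The main limma fit, edgeR and DESeq2 were tested on simulated data, and the other alternatives were not. The simulated spread between libraries was set by a formula and not taken from these libraries. Same-numbered libraries are not called pairs in the labels, so the main fit has no block.

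The members and gene lists were chosen with earlier results of these data known. Named were all members, up to 3 called genes of each other list (the one with the smallest adjusted p where none was called), and 2 genes of similar pattern per called member. Tissue markers are given as counts and sums, and the upstream stretch of 1 member is not reported here. KIN10, KIN11, KINB2, BZIP11, CASP5, BGLU23 and SUC2 were named after their values were seen.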

Additional observations from a re-analysis of the deposited data

How the results depend on the processing

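Directions of TPS1, TPS5, TPS6, TPS8, TPS9, TPS10 and TPS11 were the same in all 18 alternatives. TPS7 turned to -0.041 without control 2 (adjusted p = 0.905). TPS9 lost its call with no filter (log2 change 1.70, adjusted p = 0.0523) and with edgeR on recovered reads (1.98, adjusted p = 0.0612), and its adjusted p ran from 0.000666 to 0.153 over the alternatives. TPS10 was called with DESeq2 on recovered reads (0.86, adjusted p = 0.0121; 0.0121 to 0.283 over the alternatives) and without both libraries numbered 2 (0.79). In the latter TPS1 lost its call (-0.66), which left 0 members called lower by limma.

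Leaving out 1 library at a time gave 2 to 5 members called higher and 0 to 1 lower. The log2 change then ran from -0.72 to -0.52 for TPS1, -0.79 to -0.065 for TPS5, 0.80 to 1.03 for TPS6, -0.041 to 0.19 for TPS7, 2.31 to 3.38 for TPS8, 1.37 to 2.16 for TPS9, 0.53 to 0.99 for TPS10 and 2.13 to 2.94 for TPS11. Over all genes, 683 to 1944 were called higher and 657 to 1498 lower. With a minimum mean of 5 FPKM 676 genes were called lower, where fewer genes were tested, and DESeq2 called 1830 lower. The cause of the other differences was not tested.

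The library numbers do not meet the rule for pairs: the correlation of deviations from the group means was 0.0861, 0.383 and 0.101 for numbers 1, 2 and 3, and treated library 1 correlated best with control 3 (0.302). With a replicate block on these numbers TPS10 was called (log2 change 0.74, adjusted p = 0.0164), so that 5 members were higher and 1 lower, and no other member's call differed. Scaling set the median change over all genes between -0.0077 and 0.00088. With DESeq2 size factors 1502 genes were called higher and 1194 lower, as in the main fit, so that alternative is not a separate check. TPS2, TPS3 and TPS4 had at most 18 reads in a library, too few to test.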
